A study of Mus musculus with 12 samples.

Results

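The constitutive subunits of the proteasome core and cap were followed over 3 groups of cultured endothelial cells from wild-type newborn mice, with 4 arrays in each group. Genes were taken by symbol, as those starting with Psma, Psmb, Psmc or Psmd and a digit, without the proteolytic subunits Psmb5 to Psmb10. The rule found 34 genes, on 73 probe sets, among 18193 genes with a probe set of their own on the array. Each gene was read from its brightest probe set. The control cells were mock-transfected. The tmTNF cells were stably transfected with a murine TNF mutant that stays in the membrane because it is not cleaved, which the labels describe as constant activation. The soluble TNF cells received the cytokine at 20 ng/ml for 4 h, and the labels leave unclear whether these cells had also been transfected. No promoter for the transgene is named in the labels, nor whether the tmTNF cells were 1 clone or a pool. The labels do not say whether the 4 replicates were separate cultures, so the p-values reflect only how far these samples spread, and that spread can be technical. The replicate numbers follow the order of deposit and pair no samples.

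The 26S proteasome degrades proteins that carry ubiquitin chains. Its 20S core is a barrel of outer alpha rings, which gate the entrance, and inner beta rings, which hold the proteolytic sites. Its 19S cap has a base, with a ring of ATPases that unfold substrates, and a lid, which removes the ubiquitin. The transcription factor Nfe2l1 (Nrf1) raises the subunit genes together when proteasome capacity falls short, by binding antioxidant response elements with a small Maf partner. In endothelium the proteasome degrades the inhibitor that holds NF-kappaB in the cytoplasm after TNF binds its receptor, and inflammatory cytokines can exchange the constitutive proteolytic subunits for the inducible ones.

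By role, the 34 genes comprised 7 alpha ring subunits (Psma1 to Psma7), 4 beta ring subunits without a proteolytic site (Psmb1 to Psmb4) and 6 ATPases (Psmc1 to Psmc6). A further 3 belong to the rest of the base (Psmd1, Psmd2 and Psmd4), 8 to the lid (Psmd3, Psmd6, Psmd7, Psmd8, Psmd11, Psmd12, Psmd13 and Psmd14) and 3 are chaperones of base assembly (Psmd5, Psmd9 and Psmd10). The symbol rule also took Psmc3ip, a meiotic recombination cofactor that is not a proteasome subunit, and the testis and thymus subunits Psma8 and Psmb11. The last 2 stayed under a signal of 100 on every array, with highest values of 30.6 and 46.0, and were not tested. The other 32 reached at least 545 on every array (the lowest value was that of Psmd9, the highest 18133 for Psmd8), so none entered the tests through 1 group alone. Tests were run by limma on log2(signal + 16) over all 10269 genes that reached 100 on at least 4 arrays. A gene is called where its Benjamini-Hochberg adjusted p is under 0.05.

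Promoter sequence is shown for 4 members because it places the 2 kinds of match discussed here, the antioxidant response element core and the Ets core, in genes whose array values are given below. RefSeq (GRCm38.p6) upstream windows of 250 bases, ending just before the start of the transcript, were matched for 28 of the 34 genes, in 30 windows. The 4 windows lie at chr14:14120946-14121195 (Psmd6, minus strand), chr14:45329574-45329823 (Psmc6, plus strand), chr11:107479278-107479527 (Psmd12, plus strand) and chr5:123227940-123228189 (Psmd9, plus strand). Capitals mark matches to either core on either strand, read 5′ to 3′ along the gene.
Psmd6: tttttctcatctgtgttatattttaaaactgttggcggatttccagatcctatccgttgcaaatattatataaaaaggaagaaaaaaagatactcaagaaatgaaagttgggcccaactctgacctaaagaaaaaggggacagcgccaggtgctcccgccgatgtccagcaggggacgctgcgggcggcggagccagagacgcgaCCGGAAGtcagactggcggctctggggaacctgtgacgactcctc
Psmc6: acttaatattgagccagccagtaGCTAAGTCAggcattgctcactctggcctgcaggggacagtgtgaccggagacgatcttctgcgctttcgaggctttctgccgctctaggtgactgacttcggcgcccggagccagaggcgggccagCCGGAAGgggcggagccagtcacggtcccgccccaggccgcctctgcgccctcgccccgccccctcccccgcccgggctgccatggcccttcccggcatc
Psmd12: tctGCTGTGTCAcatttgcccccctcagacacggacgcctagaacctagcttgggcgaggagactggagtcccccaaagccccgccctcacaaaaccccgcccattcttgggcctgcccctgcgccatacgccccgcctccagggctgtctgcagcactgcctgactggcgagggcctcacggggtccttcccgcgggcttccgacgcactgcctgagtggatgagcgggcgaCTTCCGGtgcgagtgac
Psmd9: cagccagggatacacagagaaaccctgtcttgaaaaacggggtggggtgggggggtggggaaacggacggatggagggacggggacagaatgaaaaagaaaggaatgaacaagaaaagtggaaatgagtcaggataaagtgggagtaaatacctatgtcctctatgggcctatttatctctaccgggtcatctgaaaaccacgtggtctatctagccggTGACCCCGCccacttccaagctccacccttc

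The Ets core CCGGAAG, searched on both strands, was found in 36.7% of the member windows, against 6.91% of all 32851 windows of the same length. The matches were in 10 genes, among them Psma6, Psmc1, Psmc2, Psmc6, Psmd2 and Psmd6, and also Psmc3ip, which is not a subunit. The antioxidant response element core TGACNNNGC was found in 10% of member windows, in Psmc6, Psmd12 and Psmd9, against 10.2% of all. The GC box GGGCGG was in 53.3% of member windows against 32.7% of all, and the CCAAT box in 43.3% against 33.8%. The AP-1 site TGACTCA was in 3.33% (Psmd9 alone) against 4.46%. A kappaB consensus, the site of NF-kappaB, was matched in 0 member windows and in 0.14% of all. Member windows had a median GC content of 57.6% and all windows 52.4%. The shares were adjusted neither for that nor for expression level. The motif list was extended after first matches had been seen. A match is a string of letters and not evidence of a bound factor, and elements further upstream or downstream of the window were not searched.

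In tmTNF cells the core and cap subunits lay near the control level. None of the 32 tested members was called between tmTNF and control by limma, where 0.195% of all genes were, and none had an unadjusted p under 0.05, against 7.56% of all genes. The median log2 difference was -0.04 over the members and 0.03 over all genes, and 13 of 32 members had a difference above 0, against 53.2% of all genes. All 32 members had a 95% interval inside a 2-fold difference in either direction, which held for 53.4% of all genes. The widest bounds were -0.87 for Psmc4 and 0.95 for Psmb2. The core had a median of -0.04 over 11 subunits and the cap one of -0.05 over 17.

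Psmc2, an ATPase of the cap, was the only member whose tmTNF arrays all lay above the control arrays, a pattern shown by 2.19% of all genes upwards and by 3.17% in either direction. Its signal was 11829, 9840, 10637 and 11331 in control replicates 1 to 4 and 12587, 14239, 12332 and 13543 in tmTNF replicates 1 to 4. The difference was 0.27 ± 0.13 (log2, SE), with a limma adjusted p of 0.668. In soluble TNF cells Psmc2 gave 14911, 11293, 10579 and 11518, so that replicate 1 lay above every tmTNF array and the other 3 lay below all of them. Psmd7, the lid partner of the deubiquitinase Psmd14, had a difference of 0.36 ± 0.21 with an adjusted p of 0.777 and overlapping groups. Psmb2, of the beta ring, had one of 0.36 ± 0.27 (adjusted p 0.867). Its tmTNF arrays ran from 2032 to 4775, and its control arrays from 2102 to 3524. Psmd1, the large scaffold of the base, had a difference of 0.32 ± 0.22 (adjusted p 0.836).

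The lowest differences from control in tmTNF cells were those of Psmc4, an ATPase, at -0.35 ± 0.24 (limma adjusted p 0.834), Psmd6 at -0.24 ± 0.19 (0.881), the alpha subunit Psma7 at -0.23 ± 0.15 (0.827) and Psmd2, the docking subunit for ubiquitin shuttles, at -0.20 ± 0.25 (0.929). Psmc4 was low on 2 of the 4 tmTNF arrays. Its tmTNF signals were 7118, 3156, 7226 and 4739, and the control signals 6794, 5597, 7373 and 7340. Those 2 low arrays, tmTNF replicates 2 and 4, also had the lowest endothelial marker levels of the tmTNF group. Without them and control replicate 3, the 3 arrays with the lowest marker level of the 12, the Psmc4 difference was 0.13 and that of Psmb2 was -0.08, each of the opposite sign. The count of members whose groups did not overlap was then 3 (16.6% of all genes in this smaller set of arrays). Leaving out control replicate 1 gave 3 (7.26% of all genes), with Psmc2 and Psmd10 higher and Psmd6 lower in tmTNF cells. The Psmd6 difference was then -0.47. The count was 2 without control replicate 2 (6.31%) and also 2 when tmTNF replicate 4 was left out (4.28%). The count with an unadjusted p under 0.05 was 3 without control replicate 1 (10.1% of all genes), 2 without tmTNF replicate 3 (7.45%), and 1 without tmTNF replicate 1 (10.5%) or soluble TNF replicate 1 (6.73%). The count above 0 became 21 when tmTNF replicate 3 was left out (52% of all genes) and 6 when it was tmTNF replicate 4 (54.8%). The member median lay above 0, between 0.02 and 0.04, when control replicate 1 or 4 or tmTNF replicate 2 or 3 was left out.

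**Figure D1:**
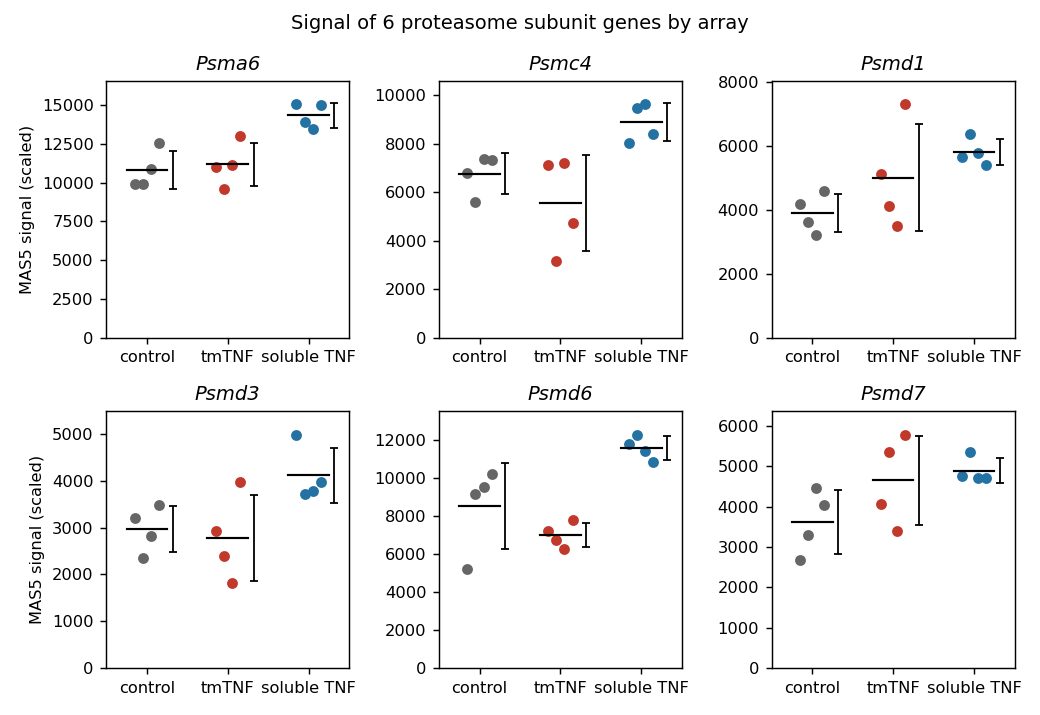
Array signals (linear scale) of 6 members in the control, tmTNF and soluble TNF groups, with each point 1 array, each horizontal line the group mean and each bar beside it the SD over 4 arrays. Psma6, Psmc4 and Psmd6 have every soluble TNF array above every array of both other groups, while in Psmd1, Psmd3 and Psmd7 the tmTNF arrays spread across the range of the others.

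After 4 h of soluble TNF most core and cap subunits had slightly higher mean signals than in the controls, and no single one passed the test. The count called was 0 of 32 by limma, against 0.0390% of all genes. With an unadjusted p under 0.05 there were 4 members, all higher (Psma6, Psmd1, Psmd6 and Psmd7), where 5.40% of all genes were higher at that level and 12.7% differed in either direction. The difference lay above 0 for 28 of 32 members, against 45.8% of all genes. The median was 0.22 over the members, -0.05 over all genes and 0.04 over the 4990 genes at least as bright as the dimmest member. The 4 soluble TNF arrays lay above all 4 control arrays for 7 members (Psma4, Psma6, Psmc4, Psmd1, Psmd3, Psmd6 and Psmd7), a pattern shown by 3.67% of all genes, and below them for none. In either direction 8.11% of all genes had no overlap. All values compare the same 4 control arrays used for tmTNF. The members were read on the same arrays, so their differences are not independent of each other.

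The alpha ring had positive differences in 7 of 7 subunits, from 0.06 to 0.41, with a median of 0.22. Psma6 had the smallest p of any member here. Its signal was 9944, 9900, 10863 and 12545 in controls and 15050, 13933, 13439 and 15026 after soluble TNF. The lowest treated array was above the highest control, the difference was 0.41 ± 0.13, and the limma adjusted p was 0.268. Psma4 gave 7596, 8330, 7394 and 8503 in controls and 8952, 11617, 10565 and 8750 after soluble TNF, again without overlap, for a difference of 0.32 ± 0.15 (adjusted p 0.417). The beta ring had a median of 0.02, with 2 of 4 subunits above 0. Psmb1 had a difference of 0.00 ± 0.15 and Psmb2 one of -0.02 ± 0.27, with limma adjusted p of 0.994 and 0.983.

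The ATPase ring had differences above 0 in 6 of 6 subunits, from 0.14 to 0.57, with a median of 0.31. The highest was Psmc3 at 0.57 ± 0.28 (limma adjusted p 0.431). Its control signals were 5555, 5327, 5111 and 10000 and its treated signals 11062, 8932, 6296 and 11718. Control replicate 4 lay within the treated range, so the groups overlapped. In the rest of the base, Psmd1 had signals of 4186, 3620, 3227 and 4576 in controls and 5651, 6384, 5767 and 5414 in treated cells, which do not overlap. Its difference of 0.58 ± 0.22 was the highest of the 32 (limma adjusted p 0.327). The ubiquitin receptor Psmd4 had a difference of 0.02 ± 0.17.

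In the lid, 7 of 8 subunits lay above 0, with a median of 0.35. Psmd6 read 5195, 9197, 9557 and 10211 in controls and 11814, 12311, 11433 and 10843 after soluble TNF. Control replicate 1 was far below the other controls, yet the remaining 3 also lay under every treated array, and the difference was 0.49 ± 0.19 (limma adjusted p 0.341). Without control replicate 1 it was 0.26 (adjusted p 0.528). Psmd7 read 2672, 3299, 4457 and 4026 in controls and 4767, 5345, 4702 and 4714 after soluble TNF, for a difference of 0.46 ± 0.21 (adjusted p 0.391). Psmd12, a structural lid subunit, read 5481, 4751, 7605 and 8220 in controls and 8085, 7780, 8370 and 7410 after soluble TNF, with overlap, for a difference of 0.31 ± 0.25 (adjusted p 0.617). Psmd3 also had no overlap, with 3216, 2352, 2832 and 3495 in controls and 4993, 3715, 3786 and 3977 in treated cells. Its difference was 0.47 ± 0.24 (adjusted p 0.432). Psmd8 was the lid subunit below 0, at -0.30 ± 0.28 (adjusted p 0.678). Its control replicate 1 read 18133, against 6112 to 9981 on the other controls and 6894 to 9281 on the treated arrays, and without that array the difference was 0.00. The chaperones had a median of 0.23, with Psmd5 at -0.06 ± 0.26 (adjusted p 0.948) and Psmd9 at 0.25 ± 0.30 (0.761).

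For 30 of 32 members the 95% interval after soluble TNF lay inside a 2-fold difference, against 46.3% of all genes. The exceptions were Psmc3, with an upper bound of 1.18, and Psmd1. The cap had a median of 0.33 over 17 subunits and the core one of 0.17 over 11, a gap that was not tested. The count of members without overlap was 12 when control replicate 4 was left out (18.2% of all genes then). The count with an unadjusted p under 0.05 was 2 when control replicate 1 (9.41% of all genes), soluble TNF replicate 1 (9%) or soluble TNF replicate 2 (8.42%) was left out. It was 7 without control replicate 4 (18.1%) or tmTNF replicate 4 (12.9%). The Actb 3′ to 5′ signal ratio, a measure of RNA integrity, was 1.10 to 1.16 on soluble TNF arrays and 1.18 to 1.29 on controls, and the mean 18S ribosomal RNA signal was 376 to 592 against 190 to 309. Both separated the soluble TNF arrays from the controls. On tmTNF arrays the 18S signal was 320 to 724, also above every control, while the Actb ratio of 1.12 to 1.29 overlapped the controls. The part of these measures in the differences was not tested.

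**Figure D2:**
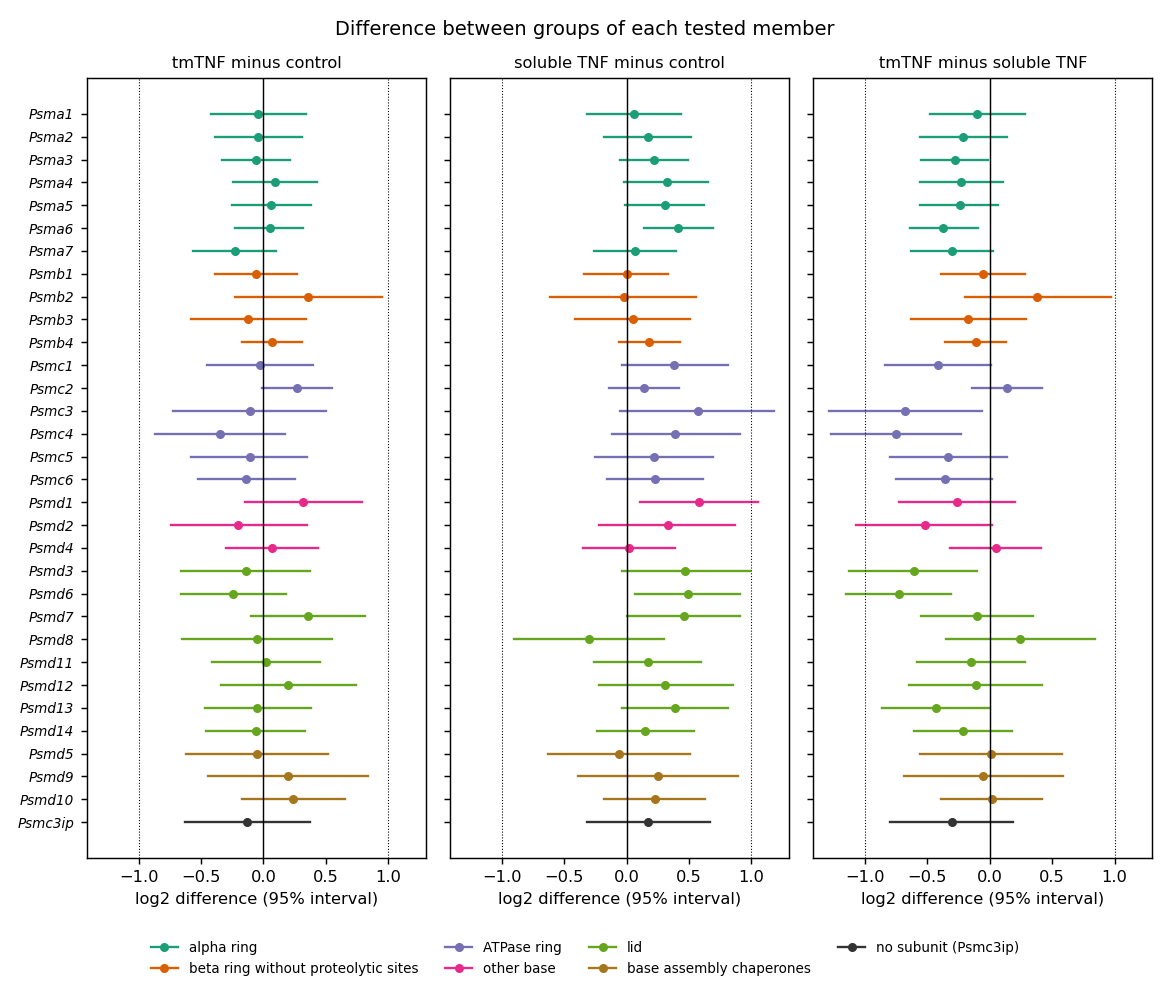
Log2 difference of each tested member, ordered by role, for tmTNF minus control, soluble TNF minus control and tmTNF minus soluble TNF. Points are limma estimates, bars are 95% intervals, and dotted lines mark a 2-fold difference. The first panel is spread around 0 (13 of 32 above), the second lies mostly right of 0 (28 of 32) and the third mostly left of it (6 of 32 above).

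Compared with soluble TNF cells, tmTNF cells had lower mean signals for most subunits, again with no member called. The count was 0 of 32 by limma against 1.22% of all genes, and the smallest adjusted p was 0.0818, for Psmd6. At an unadjusted p under 0.05 there were 7 members, all lower in tmTNF cells (Psma3, Psma6, Psmc3, Psmc4, Psmd3, Psmd6 and Psmd13), where 7.49% of all genes were lower at that level and 19.9% differed in either direction. The median was -0.22 over the members, 0.08 over all genes and -0.06 over genes at least as bright as the dimmest member. The difference was above 0 for 6 of 32 members, against 55.9% of all genes. All 4 tmTNF arrays lay below all 4 soluble TNF arrays for Psma6, Psmc4, Psmc6 and Psmd6, a pattern shown by 5.86% of all genes downwards and by 16.1% in either direction. This comparison shares the soluble TNF arrays with the one above, so these comparisons are not independent.

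Psmd6, a structural subunit of the lid (gene ID 66413), read 7211, 6725, 6288 and 7792 in tmTNF cells, below every soluble TNF array and below 3 of the 4 controls. Its difference from soluble TNF was -0.73 ± 0.19, which is 1.66-fold lower. A second probe set of Psmd6 gave -0.88 ± 0.20. Control replicate 1, far below the other controls for Psmd6, is in neither group compared here. Leaving it out kept the difference and altered the spread estimated over the 3 groups. Psmd6 was then the 1 member called in this comparison, at a limma adjusted p of 0.0115, where 2.30% of all genes were called. It was also called when the fit held only these 2 groups (0.0193), as were 4.28% of all genes. Psmc4 (gene ID 23996) read 8033, 9462, 9632 and 8412 after soluble TNF, against the tmTNF values given above. The difference was -0.75 ± 0.24, 1.68-fold lower, with an adjusted p of 0.13. It was -0.50 without tmTNF replicate 2 (adjusted p 0.248) and -0.30 without the 3 arrays of lowest endothelial marker level (0.316). Psmc4 was called when every array was set to the same median (adjusted p 0.0348), where 2.33% of all genes were. With array weights 4 members were called, Psma6, Psmc3, Psmc4 and Psmd6, against 11.5% of all genes.

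Psma6 read 11001, 9600, 11134 and 13008 in tmTNF cells, close to its controls, and the difference from soluble TNF was -0.37 ± 0.13 (limma adjusted p 0.146). Its 2 other probe sets gave -0.28 ± 0.14 and -0.12 ± 0.24 here, and 0.36 ± 0.14 and 0.14 ± 0.24 in soluble TNF minus control. The second probe set has the largest spread of the 3, and with it the Psma6 groups overlapped. Psmd3 read 2925, 2392, 1816 and 3969 in tmTNF cells, where replicate 4 overlapped the soluble TNF range, and had a difference of -0.61 ± 0.24 (adjusted p 0.184). Psmc6, an ATPase, read 7285, 9355, 8242 and 9222 in tmTNF cells and 13264, 11260, 9830 and 9674 after soluble TNF. The groups did not overlap, though the nearest arrays were close, and the difference was -0.36 ± 0.18 (adjusted p 0.274). Further Psmc6 probe sets gave -0.66 ± 0.20 and -0.58 ± 0.26. On the other side of 0 were Psmb2 at 0.38 ± 0.27 (adjusted p 0.448), Psmd8 at 0.24 ± 0.28 (0.655), Psmc2 at 0.14 ± 0.13 (0.584) and Psmd4 at 0.05 ± 0.17 (0.906), none of them separated between groups. With every array at the same median, Psmc2 and Psmd4 were at -0.10 and -0.19.

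By role, the medians of tmTNF minus soluble TNF were -0.24 in the alpha ring (7 of 7 below 0), -0.08 in the beta ring, -0.39 in the ATPase ring, -0.26 in the rest of the base, -0.18 in the lid and 0.01 among the chaperones. The 95% interval lay inside a 2-fold difference for 27 of 32 members (43.3% of all genes). The exceptions were Psmc3, Psmc4, Psmd2, Psmd3 and Psmd6, with the lowest bound at -1.29 for Psmc3. Leaving out tmTNF replicate 3 brought the member median to -0.145. The count without overlap became 13 when tmTNF replicate 4 was left out (25.4% of all genes then) and 7 for soluble TNF replicate 3 (21.9%). The count with an unadjusted p under 0.05 was 13 in the absence of tmTNF replicate 4 (21.1% of all genes). It was 3 in that of tmTNF replicate 2 (15.3%), tmTNF replicate 3 (14.5%) or soluble TNF replicate 1 (14.8%), and 4 in that of soluble TNF replicate 2 (15.1%) or 4 (16%). Without the 3 arrays of lowest endothelial marker level, which leaves 2 tmTNF arrays, 18 members did not overlap, 17 of them lower in tmTNF cells, where 42.2% of all genes did not. The count with an unadjusted p under 0.05 was then 3, against 22.1% of all genes.

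The member medians depended on how arrays were put on 1 scale. Setting every array to the same median moved the median of all genes to -0.12, 0.04 and -0.15 for tmTNF minus control, soluble TNF minus control and tmTNF minus soluble TNF. The member medians were then -0.189, 0.311 and -0.455. Relative to the median of all genes they lay at -0.07, 0.27 and -0.31, against -0.07, 0.27 and -0.30 in the main scaling. Under quantile normalization the medians of all genes were 0.00, -0.01 and 0.00, and those of the members 0.01, 0.19 and -0.10. The signs of the soluble TNF minus control and tmTNF minus soluble TNF medians were the same under both scalings, and that of tmTNF minus control was not.

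Seen array by array, many members were high or low on the same arrays. Each member's log2 signal was set against its own mean over the 12 arrays, and the median over the 32 members was taken on each array. It was 0.01, -0.28, -0.06 and 0.05 on control replicates 1 to 4, -0.08, -0.19, -0.28 and 0.19 on the tmTNF arrays, and 0.24, 0.18, 0.11 and 0.15 on the soluble TNF arrays. The group means were -0.07 ± 0.15, -0.09 ± 0.20 and 0.17 ± 0.05 (SD, n = 4 arrays each). Control replicate 2 and tmTNF replicate 3 were the low arrays, and tmTNF replicate 4 lay within the soluble TNF range. The median of all genes on the same arrays stayed between -0.07 and 0.08. The highest of a member's 12 signals fell on a soluble TNF array for 17 members, on a control for 8 and on a tmTNF array for 7. The lowest fell on a soluble TNF array for 2, on a control for 16 and on a tmTNF array for 14. The matching shares over all genes are not given here, so these counts may not be particular to the members.

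The cap spanned a wider range over the arrays than the core. Its median deviation went from -0.43 on tmTNF replicate 3 and -0.39 on control replicate 2 to 0.32 on soluble TNF replicate 1. The core ran from -0.19 on tmTNF replicate 3 to 0.22 on soluble TNF replicate 2. Control replicate 1, which held 6 of the highest values of any member and 4 of the lowest, had a median core deviation of 0.06 and a cap deviation of 0.00.

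**Figure D3:**
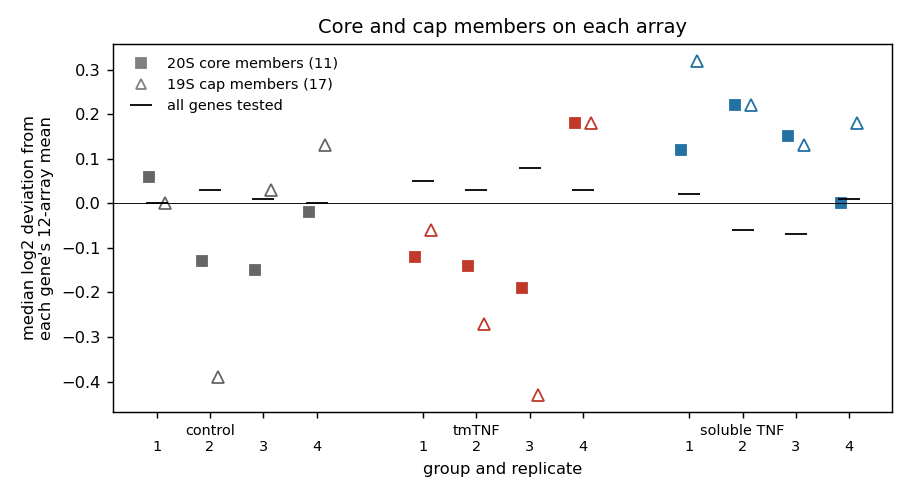
Median deviation (log2) of core members (alpha and beta rings, 11 genes) and cap members (ATPase ring, other base and lid, 17 genes) from their own 12-array means, shown for each array as squares and triangles, with dashes for the median of all genes. The cap medians of control replicate 2 and tmTNF replicate 3 are lowest, at -0.39 and -0.43, and all 4 soluble TNF arrays have cap medians of 0.13 or more, as do control replicate 4 (0.13) and tmTNF replicate 4 (0.18).

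The spread within groups was small. The pooled within-group SD had a median of 0.27 (log2) over the members, from 0.12 for Psmb4 to 0.43 for Psmc3, against 0.45 over all genes and 0.36 over 1539 genes of similar brightness. Within groups the median SD of the members was 0.32 in controls, 0.24 in tmTNF cells and 0.17 after soluble TNF. All genes showed the same order, at 0.50, 0.42 and 0.29. The soluble TNF group was the tightest of the 3 for 20 of 32 members and for 60% of all genes.

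Other probe sets of the same genes gave like values. There were 22 further probe sets, of 15 members, past the filter. Their median differences were -0.03, 0.19 and -0.22 in the 3 comparisons in the order above. The sign matched that of the chosen probe set for 16 of 22 in tmTNF minus control, 20 of 22 in soluble TNF minus control and 19 of 22 in tmTNF minus soluble TNF. Probe sets of 1 gene share its RNA and the arrays, and are not replicates.

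The proteolytic subunits of the core, which the symbol rule leaves out, split by type. The constitutive Psmb5, Psmb6 and Psmb7 had median differences of -0.24 in tmTNF minus control, 0.20 in soluble TNF minus control and -0.32 in tmTNF minus soluble TNF. None was called by limma. Psmb6 read 6613, 5161, 4283 and 7276 in tmTNF cells and 9249, 7953, 7715 and 7717 after soluble TNF, without overlap, for a difference of -0.51 ± 0.19 (adjusted p 0.167). Psmb5 had one of -0.32 ± 0.13 (0.199), also without overlap. The inducible subunits had far larger differences from control in tmTNF cells, at 2.12 ± 0.43 for Psmb10 (adjusted p 0.0842), 2.17 ± 0.58 for Psmb9 (0.234) and 1.95 ± 0.57 for Psmb8 (0.327), each without overlap. Psme1, of the PA28 activator, had 0.52 ± 0.23 (0.637). In soluble TNF minus control the differences were 1.31 ± 0.43 for Psmb10 (0.286), whose groups did not overlap, -0.43 for Psmb9, 0.06 for Psmb8 and 0.20 for Psme1. Soluble TNF replicate 3 stood apart, with Psmb8 at 4936 (814 to 1092 on the other 3 arrays), Psmb9 at 1522 (174 to 339) and Psmb10 at 5461 (1929 to 2570). Without it these differences were 0.98, -1.10, -0.54 and 0.06 in the same order. Psmb9 was then called in tmTNF minus control, at an unaltered 2.17 (limma adjusted p 0.0275), where 0.284% of all genes were. Psmb9 and Psmb8 were called in tmTNF minus soluble TNF, at 3.27 (0.00402) and 2.49 (0.0279), where 0.627% of all genes were. Without control replicate 4, Psmb9 was called in tmTNF minus soluble TNF, at an unaltered 2.60 (0.0417), as were 1.93% of all genes. No inducible subunit was called with any other array left out. In tmTNF minus soluble TNF the adjusted p of Psmb9 was 0.15, 0.142 and 0.137 without soluble TNF replicates 1, 2 and 4. That of Psmb10 in tmTNF minus control was 0.39 without tmTNF replicate 4. With all 12 arrays none of the inducible subunits passed the threshold, and the gap between inducible and constitutive subunits was not tested.

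**Figure D4:**
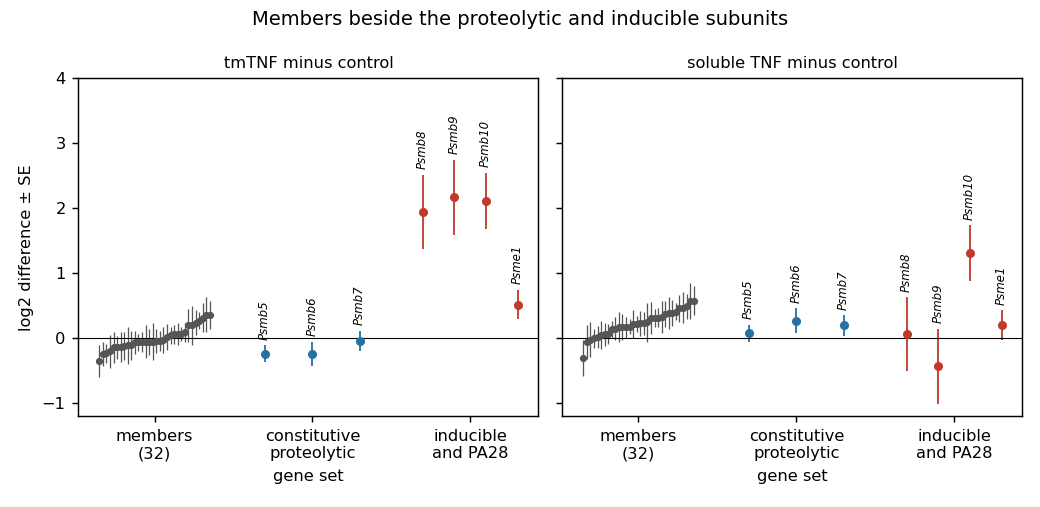
Log2 differences of tmTNF minus control and soluble TNF minus control for the 32 tested members, the constitutive proteolytic subunits Psmb5 to Psmb7, and the inducible subunits Psmb8 to Psmb10 with Psme1. Each point is a gene, the members are sorted by value in each panel, and bars are 1 SE. In tmTNF minus control the members lie between -0.35 and 0.36, while Psmb8, Psmb9 and Psmb10 lie near 2.

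Beyond these, a list of 46 further genes of the pathway, the proteolytic and inducible subunits included, had 37 with a probe set of their own, and 0 were called by limma in each of the 3 comparisons. Among the factors that control proteasome genes, Mafk, a small Maf partner of Nfe2l1, had a difference of 0.99 ± 0.28 in tmTNF minus control (adjusted p 0.297) and 1.13 ± 0.28 in tmTNF minus soluble TNF (0.071). Nfe2l1 itself had 0.29 ± 0.35 in tmTNF minus control (0.924), -0.63 ± 0.35 in soluble TNF minus control (0.474) and 0.91 ± 0.35 in tmTNF minus soluble TNF (0.18), and the related Nfe2l2 had -0.84 ± 0.28 in soluble TNF minus control (0.286). At an unadjusted p under 0.05, 1 of 6 tested factors was higher in tmTNF minus control, against 4.81% of all genes. In soluble TNF minus control 1 was higher (Maff, 1.61 ± 0.67) and 1 lower, against 5.40% and 7.28% of all genes. In tmTNF minus soluble TNF 3 were higher, against 12.4%.

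The shuttles that bring substrates to the cap were listed together with Vcp (p97) and its cofactors. The 8 tested genes of this list had a median of 0.39 in soluble TNF minus control, against -0.05 over all genes. At an unadjusted p under 0.05, 3 were higher, where 5.40% of all genes were higher and 12.7% differed in either direction. These were the shuttle Ubqln2 at 0.61 ± 0.20 (limma adjusted p 0.28), the p97 cofactor Nploc4 at 0.52 ± 0.23 (0.378) and the unfoldase Vcp (p97) at 0.39 ± 0.15 (0.337). Vcp had a difference of 0.38 ± 0.15 in tmTNF minus control too (0.598). Ubqln1 had -0.62 ± 0.21 in tmTNF minus soluble TNF (0.143). The 5 chaperones of core assembly had medians of 0.01, 0.14 and 0.03 in the 3 comparisons. Their smallest p was that of Psmg1 in tmTNF minus soluble TNF, at -0.62 ± 0.30 (0.268), and the same gene led in tmTNF minus control, at -0.58 ± 0.30 (0.713). In soluble TNF minus control it was Psmg2, at -0.36 ± 0.26 (0.593).

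Adrm1, on the list of other cap subunits and cap-bound proteins, had no probe set of its own. Of the 7 tested from that list, the one with the smallest p was Ecpas in tmTNF minus control, at 0.51 ± 0.25 (limma adjusted p 0.698). It was Zfand5, at -0.36 ± 0.21 (0.493) in soluble TNF minus control and 0.52 ± 0.21 (0.199) in tmTNF minus soluble TNF. Among the 3 other activators and inhibitors, Psme3 had 0.47 ± 0.28 (0.514) in soluble TNF minus control and -0.51 ± 0.28 (0.33) in tmTNF minus soluble TNF, and Psmf1 had -0.15 ± 0.25 (0.948) in tmTNF minus control. Of the ubiquitin genes and their activating enzymes, Uba6 alone had a probe set of its own, with differences of 0.24, -0.19 and 0.44 and limma adjusted p of 0.937, 0.842 and 0.487.

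Between 17652 and 19174 probe sets reached a signal of 100 on an array. All 4 tmTNF arrays, at 18401 to 19174, lay above the controls (17889 to 18359) and the soluble TNF arrays (17652 to 18216). The part of this in the tmTNF comparisons was not tested. All 15 endothelial markers passed the filter. A signal of 100 was reached on every array of the group by 10 of them in controls and by 13 in each of the other groups. Their mean log2 level was 8.86 to 12.25 in controls, 9.82 to 12.38 in tmTNF cells and 10.16 to 11.58 after soluble TNF. The leukocyte markers Ptprc, Adgre1, Itgam, Cd3e and Cd79a stayed under 100 on all 12 arrays, as did the fibroblast markers Lum, Postn, Thy1 and Fbln1. The other 3 leukocyte markers (Cd68, Csf1r and Lyz2) and 4 other fibroblast markers passed the filter. The highest signal of a single leukocyte marker was 18210 in controls, 6728 in tmTNF cells and 232 after soluble TNF. For a single fibroblast marker it was 4547, 7271 and 4119. Summed leukocyte signal was 723 to 18606 in controls, 466 to 7287 in tmTNF cells and 427 to 611 after soluble TNF, and summed fibroblast signal 351 to 10087, 358 to 8492 and 232 to 8171. Summed smooth muscle and pericyte signal was 215 to 1297, 293 to 1822 and 921 to 1839, and summed mesothelial signal 433 to 10689, 240 to 14093 and 467 to 4478. Summed signal of 3 Y-linked genes was 968 to 2508 in tmTNF cells, 17.6 to 87.2 in controls and 21.8 to 57.4 after soluble TNF, so the tmTNF cells differed from both other groups in Y-linked signal as well as in the transgene, and these cannot be told apart. In RNA from whole cultures, fewer cells of a type and less RNA per cell cannot be told apart either.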

How the data were processed

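Total RNA of 12 samples (3 groups of 4, about 5 micrograms per array per the labels) was hybridised to Affymetrix mouse arrays. The deposited values are linear signal intensities, 1 for each probe set, and MAS5 is the tool the submitters' processing notes name. Its settings are not given in the sources used here. Each deposited array had a 2% trimmed mean of 1000 and was rescaled here to 500 without the 64 control probe sets. The log2 of signal + 16 was fitted with limma 3.58.1 in R 4.3.3 (3 groups in 1 model, eBayes with intensity trend, two-sided, Benjamini-Hochberg over 10269 genes, threshold 0.05). A gene needed 4 arrays at 100 or more. The fit was also run on simulated data with independent noise and added differences larger than those of any member. That run does not bear on differences as small as the members have. The number of arrays limits the precision. Gene symbols are those of the platform annotation, and 34945 probe sets had 1 symbol.

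The members and gene lists were chosen with earlier results of these data known. Named members are, per comparison and direction, the 4 with the smallest unadjusted p, with all members counted. Of the other lists, the gene with the smallest p in each comparison is named, besides Psmb5 to Psmb10 and Psme1. Psma4, Psmc3, Psmc6, Psmd9 and Psmd12 among the members, and Maff, Nfe2l1, Vcp and Nploc4, were added after their values were seen. Alternatives were other scalings, pseudocounts (1, 64), filters (none, 250), probe set choices, fits and left-out arrays. The 3-array exclusion, the count above 0 and the left-out arrays for the inducible subunits were added after seeing the data.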

Additional observations from a re-analysis of the deposited data

Results flagged for a closer look

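Within 8 of 99 groups of 4 arrays (the signals of each tested member and the per-array member median, by group), 1 array lay so far from the other 3 that its gap passed Dixon's limit for 4 values. Chance passes that limit in about 1 of 20 groups, which would be 4.95 here. Each of the 8 concerned a different member, and 4 were low and 4 high. In controls, Psmd6 read 5195 on replicate 1, against 9197 to 10211 on the others, and Psmd9 read 545 on the same array, against 1278 to 1451. Psmb2 read 3524 on that array, against 2102 to 2208. Psma5 read 6540 on control replicate 3, against 8084 to 8346, and Psmc3 read 10000 on control replicate 4, against 5111 to 5555. In tmTNF cells, Psmd10 read 2059 on replicate 2, against 2472 to 2550, and Psmc3ip read 916 on replicate 4, against 643 to 683. After soluble TNF, Psmd7 read 5345 on replicate 2, against 4702 to 4767.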

How the results depend on the processing

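Over up to 25 alternatives, no member was called in tmTNF minus control (0.0101% to 0.512% of all genes) or soluble TNF minus control (0% to 0.262%). In tmTNF minus soluble TNF 1 member was called with the same median on every array (2.33% of all genes) and 1 with these 2 groups only in the fit (4.28%). With array weights 4 were called (11.5%), and 0 to 1 when 1 array was left out (0.158% to 2.3%). The counts without overlap (main 1, 7 and 4 in the order tmTNF minus control, soluble TNF minus control, tmTNF minus soluble TNF) were 0 and 8 in the first and last with the same median (3.84% and 16.5% of all genes), 0 and 2 with the probe set of largest spread (3.42% and 15.9%), and 3 and 18 without the 3 arrays of lowest endothelial marker level (16.6% and 42.2%). The last was 1 under quantile normalization (14.0%), and the middle one 11 with the mean of all probe sets (8.19%). Leaving out 1 array gave 1 to 3, 7 to 12 and 4 to 13. The shares of all genes were then 3.16% to 7.81%, 8.16% to 18.2% and 16.2% to 25.4%. The counts with an unadjusted p under 0.05 (main 0, 4 and 7) were 2, 9 and 17 with the same median (8.53%, 11.3% and 21.1% of all genes). They were 1 and 3 in the first and last with quantile normalization (7.12% and 17.1%), 7 in the middle one with 2 groups in the fit (12.9%), and 13 and 3 in the last with array weights (30.5%) and without the 3 arrays (22.1%). Leaving out 1 array gave 0 to 3, 2 to 7 and 3 to 13, against 5.26% to 10.5%, 8.42% to 18.1% and 14.5% to 22.4% of all genes. The counts above 0 were 7 in tmTNF minus control and 2 in tmTNF minus soluble TNF with the same median (37.6% and 39.3% of all genes). In tmTNF minus control that count was 6 to 21 when 1 array was left out (52% to 54.8% of all genes). The member median was 0.311 in soluble TNF minus control with the same median, and 0.16 to 0.264 with 1 array left out. In tmTNF minus soluble TNF it was -0.10, -0.455 and -0.323 with quantile normalization, the same median and without the 3 arrays, and -0.321 to -0.145 with 1 array left out. The causes were not tested.

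Of 24 named differences, 8 changed sign under some alternative. With the same median, Psmb1 and Psmb2 (soluble TNF minus control) were 0.08 and 0.06, Psmc2 and Psmd4 (tmTNF minus soluble TNF) -0.10 and -0.19, and Psmd5 (soluble TNF minus control) 0.03, which was 0.21 with array weights. Without the 3 arrays, Psmb2 and Psmc4 (tmTNF minus control) were -0.08 and 0.13 and Psmd4 (tmTNF minus soluble TNF) -0.18. With 1 array left out, soluble TNF minus control ran from -0.09 to 0.09 for Psmb1, -0.11 to 0.15 for Psmb2, -0.26 to 0.12 for Psmd5 and -0.52 to 0.00 for Psmd8, and Psmd4 in tmTNF minus soluble TNF from -0.06 to 0.16. The other 16 kept their sign under every alternative run. No paired analysis was possible because the labels number no replicates.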
